A study of Homo sapiens with 24 samples.

Results

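Activins and inhibins are secreted dimers of the TGF-β superfamily, and the genes studied here are the 5 that encode their subunits (INHA, INHBA, INHBB, INHBC and INHBE), 2 that encode secreted antagonists which bind activins (FST and FSTL3), and GDF15, which encodes a distant relative of the same superfamily that is released by stressed cells. They were chosen by name, with earlier results of these data known. On the array they are read by 15 probe sets, each annotated to a single gene, of 54675 probe sets in all. HEK293, a human embryonic kidney cell line, was used in 8 conditions with 3 biological replicates each, on 24 whole-genome arrays. Cells were transfected for 24 h with a pCDNA3 plasmid that carried Flag-tagged H133W SIRT6 (the deacetylase-dead mutant), with the plasmid that carried wild type SIRT6, or with empty pCDNA3, and control cells received no DNA. Each kind of cell was taken after TNFα at 10 ng/ml and without it. The TNFα treatment lasted 4 h in the methods and 1 h in the deposited design. Transfection was transient, so that each array of transfected cells reads a mixture of cells with and without plasmid. On any array fewer cells with a transcript cannot be told apart from less of it per cell.

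An activin is built from 2 β subunits and an inhibin from an α subunit, encoded by INHA, and a β subunit. Activins bind a pair of type II and type I receptor kinases that phosphorylate SMAD2 and SMAD3, whereas inhibins compete for the type II receptors with the help of the co-receptor betaglycan. Follistatin (FST) and follistatin-like 3 (FSTL3) wrap around activins and keep them from their receptors. INHBE, which encodes the βE subunit, is made mostly in liver and is known as a target of the integrated stress response, the pathway in which ATF4 and its partners are made when translation is curbed. GDF15 acts through the receptor GFRAL in the hindbrain and is induced in many tissues by the same pathway.

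All values are log2 values after RMA normalization, with each change given on this scale as a difference between 2 conditions. A change was called where limma gave an adjusted p under 0.05 and the change was also more than 1.5-fold. Levels of different probe sets were not taken as relative amounts of transcript, since each has its own response to its transcript. The means below are thus only a rough guide to level. Of the 15 probe sets, 12 had a mean over all arrays below the median of all probe sets, 5.34, and the 3 above it were those of INHBE and INHBB and 1 of the 2 of INHBC. The markers of HEK293 cells KRT8, KRT18, VIM and CDH2 had means between 9.63 and 11.7, against means between 2.06 and 4.19 for the blood, fibroblast and endothelial markers PTPRC, CD3E, DCN, LUM, PECAM1 and CDH5. The collagen gene COL1A1 had a mean of 7.38. Of the 2 probe sets of SIRT6 itself, 233179_x_at read 9.57 to 9.86 on the 6 H133W arrays and 9.31 to 9.62 on the 6 SIRT6 arrays, against 7.76 to 9.31 on the 6 empty vector arrays, and 219613_s_at overlapped between the kinds of cell. H133W + TNFα replicate 3 stood apart from the other arrays in the difference between the 3′ and 5′ probe sets of β-actin, a sign of shortened RNA, with 3.03 against 2.05 on pCDNA3 replicate 2 and 1.33 to 1.79 on the other arrays. In limma's array weights, which are low where an array departs from its replicates, these 2 and control replicate 2 were lowest (0.0844, 0.383 and 0.311). They are the 3 arrays that stand apart below, although control replicate 2 was ordinary in the β-actin difference (1.65).

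INHBE was the member that moved between plasmids. It was higher in H133W cells than in empty vector cells by 2.18 (SE 0.132), a 4.54-fold rise (adjusted p = 5.23e-09), and higher in empty vector cells than in untransfected cells by 1.25, a 2.37-fold rise (adjusted p = 2.05e-04). The gene lies on chromosome 12 from 57455307 to 57458025 (GRCh38.p14), next to INHBC. Its probe set 210587_at read 8.30, 8.47 and 8.37 in the 3 H133W replicates, against 6.07, 6.39 and 6.14 in the pCDNA3 replicates. It read 6.76, 6.67 and 6.76 in SIRT6 cells, and 4.81, 4.92 and 5.13 in control cells. The 4 kinds of cell did not overlap, and the lowest H133W array lay above every array of the other kinds of cell.

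The same order was seen in the presence of TNFα. INHBE read 8.30, 8.25 and 8.23 in H133W + TNFα cells, against 5.99, 5.76 and 6.11 in pCDNA3 + TNFα cells. The values were 6.31, 6.35 and 6.49 in SIRT6 + TNFα cells and 4.79, 5.21 and 4.52 in control + TNFα cells. These 4 conditions did not overlap either, and H133W + TNFα replicate 3, the array with the shortened RNA, read close to its replicates. Among the 8 condition means, neighbours overlapped only between SIRT6 + TNFα and pCDNA3, between pCDNA3 and pCDNA3 + TNFα, and between control and control + TNFα.

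**Figure D1:**
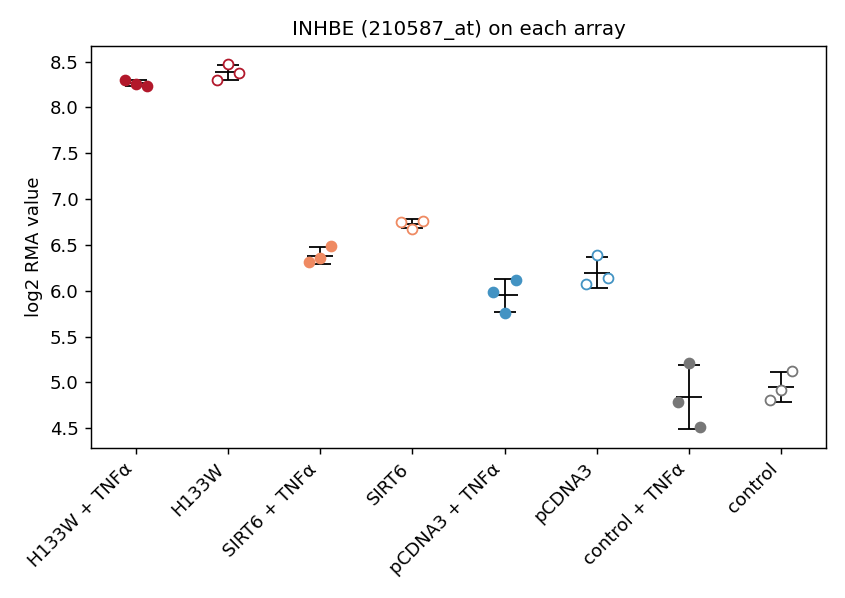
Log2 RMA value of INHBE (probe set 210587_at) on each array, by condition. Points are arrays, filled with TNFα and open without, and bars are the mean ± SD of 3 arrays. All 6 H133W arrays lie between 8.23 and 8.47, above all other arrays, and the control arrays lie lowest.

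INHBE was the only member called between H133W and empty vector cells, 1 of 15 probe sets, where 0.77% of all probe sets were called, and its rise was the 4th largest of all probe sets in that comparison. With TNFα it rose by 2.31 in H133W cells over empty vector cells (4.95-fold, adjusted p = 1.82e-09), again 1 of 15 and the 4th largest rise, where 1.4% of all probe sets were called. It was also higher in H133W cells than in SIRT6 cells, by 1.65 without TNFα (3.14-fold, adjusted p = 1.07e-06) and by 1.88 with it (3.67-fold, adjusted p = 1.12e-07). In these comparisons of the mutant with the wild type protein 0.119% and 0.333% of all probe sets were called, and INHBE was the member among them in each. All 4 calls held under each of 14 alternatives in the processing or in the arrays used, with the rise over empty vector cells between 2.12 and 2.28 without TNFα and between 2.21 and 2.39 with it.

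Wild type SIRT6 gave a smaller difference that did not pass the test. INHBE was 0.53 higher in SIRT6 cells than in empty vector cells (95% interval 0.256 to 0.809, adjusted p = 0.218), with no overlap of the arrays. With TNFα it was 0.43 higher (95% interval 0.154 to 0.708, adjusted p = 0.377), again with no overlap. In these comparisons 0.0348% and 0.0695% of all probe sets were called, with 0 of the 15 member probe sets in either and 1 of 15, INHBE, at an unadjusted p under 0.05 in each, against 5.57% and 6.61% of all probe sets. The comparisons of SIRT6 and of H133W with empty vector cells share the empty vector arrays.

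INHBE was also higher in empty vector cells than in control cells. The paper describes the control cells both as transfected with no DNA and as untransfected. Whether they received the transfection reagent is thus not clear, and the part of the reagent was not tested. Empty vector cells exceeded untransfected cells by 1.25 without TNFα and by 1.11 with it (2.16-fold, adjusted p = 9.11e-04), and the arrays did not overlap. INHBE was 1 of 15 member probe sets called in each of these comparisons, where 0.0933% and 0.0329% of all probe sets were called. In a fit to the 6 arrays of each comparison alone the changes were the same and the adjusted p was 0.0522 without TNFα and 0.133 with it. The mean in H133W cells thus lay 3.43 above that of untransfected cells, or 10.8-fold, and that in SIRT6 cells 1.78 above it, or 3.43-fold. These last differences were not among the tests.

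TNFα changed INHBE little beside the plasmids. The gene was lower with TNFα in 4 of 4 kinds of cell, by 0.12 in H133W cells, 0.35 in SIRT6 cells, 0.24 in empty vector cells and 0.11 in control cells, and none of these was called. The response to TNFα in H133W cells differed from that in empty vector cells by 0.125, with a 95% interval of -0.267 to 0.516, and the response in SIRT6 cells by -0.10, with an interval of -0.493 to 0.29. For these differences of responses 0.00366% and 0% of all probe sets were called for H133W and for SIRT6, and 0 of the 15 member probe sets in either, also at an unadjusted p under 0.05.

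Across the 8 condition means, the genes most like INHBE were ZNF767P (Pearson r = 0.9914), LOC389765 (0.9911), LRP5L (0.9901), CLHC1 (0.9863) and CIDEC (0.985), the last a lipid droplet protein. They were taken from 930 single-gene probe sets whose condition means span at least 1 on the log2 scale. The 8 means share the same 24 arrays, so that these values are a description.

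The other subunit genes did not pass the test in any comparison. INHBA, on chromosome 7 from 41685114 to 41705406, encodes the βA subunit of activin A and is read by 3 probe sets. Probe set 227140_at was higher with TNFα in 4 of 4 kinds of cell, by 0.39 to 0.56. In empty vector cells it read 5.27, 5.30 and 5.33 with TNFα, against 4.91, 4.65 and 4.67 without it, which did not overlap, a change of 0.56 with an adjusted p of 0.173. In H133W cells it read 5.70, 5.34 and 4.79 with TNFα, against 4.89, 4.92 and 4.71 without it. The low value with TNFα is that of replicate 3, the array with the shortened RNA. Without that array the change was 0.68 in place of 0.43 and was called (adjusted p = 0.0371), and the adjusted p was 8.44e-04 when control replicate 2 and pCDNA3 replicate 2 were left out with it. The part of RNA quality in this value was not tested. In control cells, where replicate 2 read 3.95 against 4.83 and 4.64 on its replicates, the change was 0.50, and it was 0.23 (adjusted p = 0.291) when the 3 arrays were left out.

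The other INHBA probe sets did not move with it. The correlation of 227140_at over the 24 arrays was 0.272 with 210511_s_at and 0.00755 with 204926_at. Probe set 210511_s_at was lower in H133W cells than in empty vector cells by 0.28 (adjusted p = 0.134) and 0.26 higher with TNFα in H133W cells (adjusted p = 0.149). Probe set 204926_at stayed between 1.96 and 2.57 on all arrays.

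INHBB, on chromosome 2 from 120346136 to 120351803, encodes the βB subunit. Its probe set 205258_at read 5.21, 5.39 and 6.51 in H133W + TNFα cells, against 5.24, 5.34 and 5.05 in SIRT6 + TNFα cells. The 6.51 was the highest of the 24 arrays, and it is again replicate 3. The difference of 0.49 (adjusted p = 0.308) became 0.0886 when the 3 arrays that stand apart were left out. INHBB was lower with TNFα in 3 of 4 kinds of cell, with changes from -0.35 to 0.02, and none was called. The 0.02 is that of H133W cells and rests on the same array. When the 3 arrays were left out it was -0.38 (adjusted p = 0.215), so that INHBB was lower with TNFα in 4 of 4.

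INHBC, which encodes the βC subunit that is made mainly in liver, lies on chromosome 12 from 57434784 to 57452062. Its probe sets lie far apart on the scale, with 207687_at between 2.34 and 3.05 and 207688_s_at between 11.93 and 12.15 on the 24 arrays. The condition means of the bright one, which lies near the top of the range of the arrays, ran from 11.99 in SIRT6 cells to 12.09 in control cells. Whether this probe set reads INHBC alone could not be checked here, and its level is not taken as that of INHBC. INHA, on chromosome 2 from 219572310 to 219575711, encodes the α subunit that makes a dimer an inhibin. Its values were between 3.29 and 3.85, and empty vector cells lay 0.21 below control cells both without TNFα (adjusted p = 0.356) and with it (adjusted p = 0.383), with no overlap of the arrays in either.

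**Figure D2:**
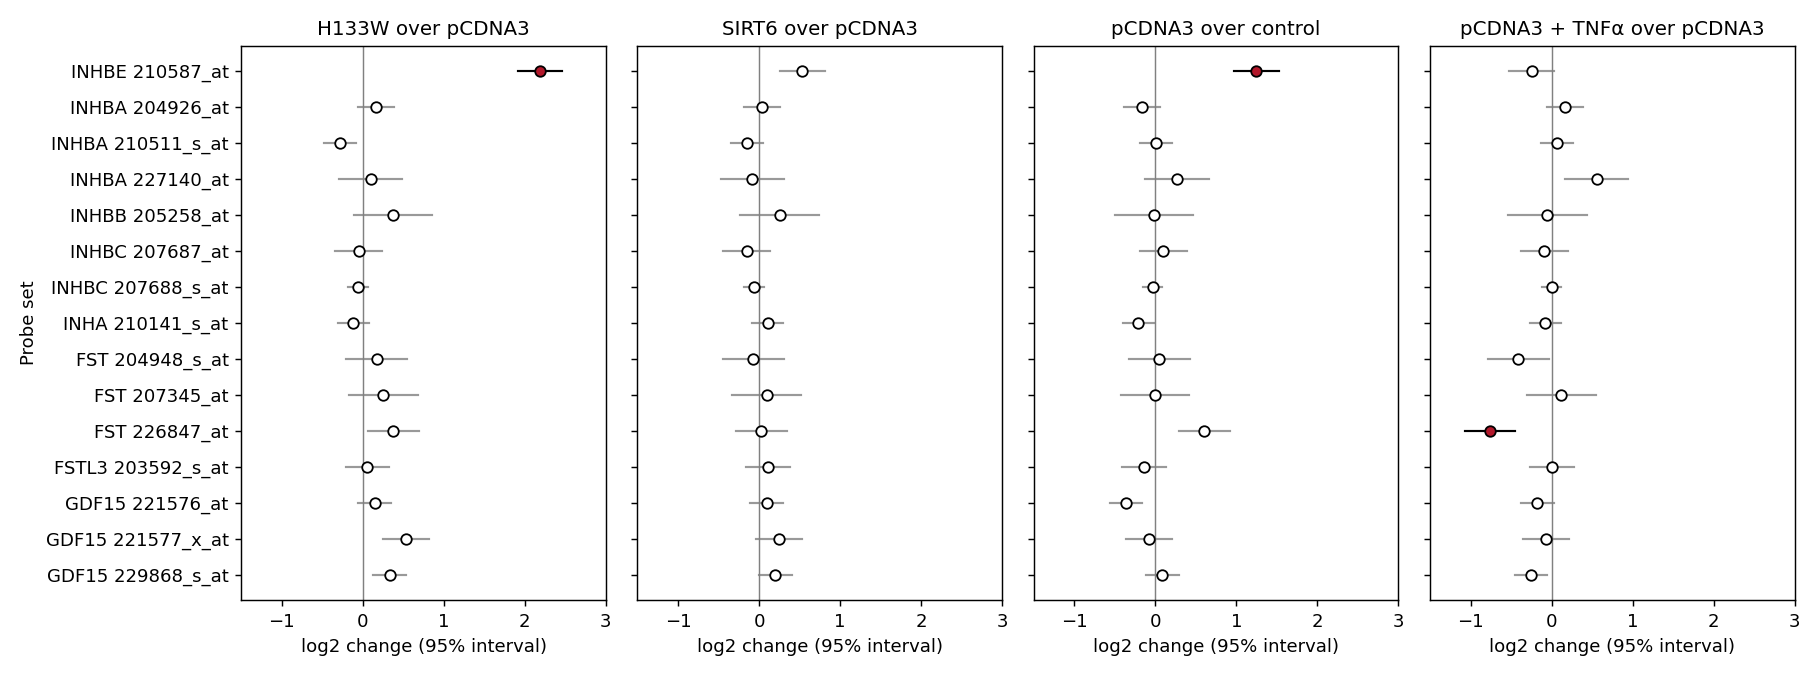
Change of each of the 15 member probe sets on the log2 scale, with 95% intervals from limma, in 4 comparisons, each of 3 against 3 arrays. Red points mark called changes. INHBE stands out at 2.18 in H133W over empty vector cells and at 1.25 in empty vector over control cells, and FST 226847_at at -0.76 with TNFα.

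Of the antagonists, FST fell with TNFα and FSTL3 was called in no comparison. FST lies on chromosome 5 from 53480629 to 53487134. The promoter sequence is shown because the gene responded to TNFα. It covers the 250 bases before the RefSeq start of the gene, chr5:53480379-53480628 on the plus strand of GRCh38.p14. The capitals mark a match to TGANTCA, a loosened form of the motif of the transcription factor AP-1 that takes any base at its centre. The match has a T there and begins 160 bases before the start.
FST: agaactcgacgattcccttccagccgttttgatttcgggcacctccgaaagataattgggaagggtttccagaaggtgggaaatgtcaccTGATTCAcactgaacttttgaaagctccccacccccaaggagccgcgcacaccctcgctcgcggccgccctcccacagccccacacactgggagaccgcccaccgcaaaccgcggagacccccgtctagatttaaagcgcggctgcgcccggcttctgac
The loosened form, searched on both strands, was found in 6.57% of 35116 promoter windows of this length. A match is a description of the letters and does not show that a factor binds there.

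FST probe set 226847_at was lower with TNFα in 4 of 4 kinds of cell, and the fall was called in the 3 kinds that had been transfected. In H133W cells it read 4.79, 4.29 and 4.83 with TNFα, against 5.66, 5.61 and 5.59 without it. In SIRT6 cells it read 4.51, 4.50 and 4.19 with TNFα, against 5.29, 5.29 and 5.23 without it. In empty vector cells it read 4.65, 4.41 and 4.38 with TNFα, against 5.51, 5.23 and 4.99 without it. In each of these every array with TNFα lay below every array without it. In control cells the values were 4.53, 4.02 and 4.12 with TNFα, against 4.68, 4.53 and 4.71 without it, where the highest array with TNFα nearly met the lowest without.

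The fall was 0.99 on the log2 scale in H133W cells (1.98-fold, adjusted p = 4.81e-04), 0.87 in SIRT6 cells (1.83-fold, adjusted p = 0.00175) and 0.76 in empty vector cells (1.69-fold, adjusted p = 0.00653). The change of -0.41 in control cells was not called (adjusted p = 0.293). FST was 1 of 15 member probe sets called with TNFα in H133W, SIRT6 and empty vector cells, where 1.12%, 0.845% and 0.86% of all probe sets were called. In control cells 0 of 15 were called, where 0.775% of all probe sets were called, and 4 of 15 had an unadjusted p under 0.05 in limma, against 8.82% of all probe sets. The same count was 5 of 15 in H133W cells, 5 of 15 in SIRT6 cells and 4 of 15 in empty vector cells, against 18.3%, 10.5% and 12% of all probe sets. The response to TNFα was not called as different from that of empty vector cells, with a difference of -0.22 in H133W cells (95% interval -0.666 to 0.217) and -0.11 in SIRT6 cells (-0.551 to 0.332). The difference from the response of control cells was not tested. In a fit to the 6 arrays of the comparison alone, the adjusted p was 0.116 in H133W cells and 0.0588 in empty vector cells, while the call in SIRT6 cells held.

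Without TNFα, FST 226847_at was 0.60 higher in empty vector cells than in control cells, with no overlap (adjusted p = 0.102), and 0.38 higher in H133W cells than in empty vector cells (adjusted p = 0.223). With TNFα the means of H133W and pCDNA3 cells were 4.63 and 4.48, and those of SIRT6 and control cells 4.40 and 4.23. Thus the conditions without TNFα were led by H133W, at 5.62, ahead of SIRT6 at 5.27, pCDNA3 at 5.24 and control at 4.64, and the SIRT6 and pCDNA3 arrays overlapped.

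A second FST probe set, 204948_s_at, moved the same way with TNFα in 4 of 4 kinds of cell and was not called. The changes were -0.63 in H133W cells (adjusted p = 0.0599), -0.53 in SIRT6 cells (0.198), -0.41 in empty vector cells (0.36) and -0.43 in control cells (0.436). In H133W cells it read 5.05, 4.76 and 4.66 with TNFα, against 5.46, 5.36 and 5.54 without it, with no overlap. That change was called without H133W + TNFα replicate 1 (-0.75, adjusted p = 0.029). The correlation of these probe sets over the 24 arrays was 0.704. The third, 207345_at, changed with TNFα by -0.23 to 0.21, with a correlation of 0.203 with 226847_at and 0.242 with 204948_s_at. The 3 FST probe sets are dim, and the files do not say which part of the transcript each reads.

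**Figure D3:**
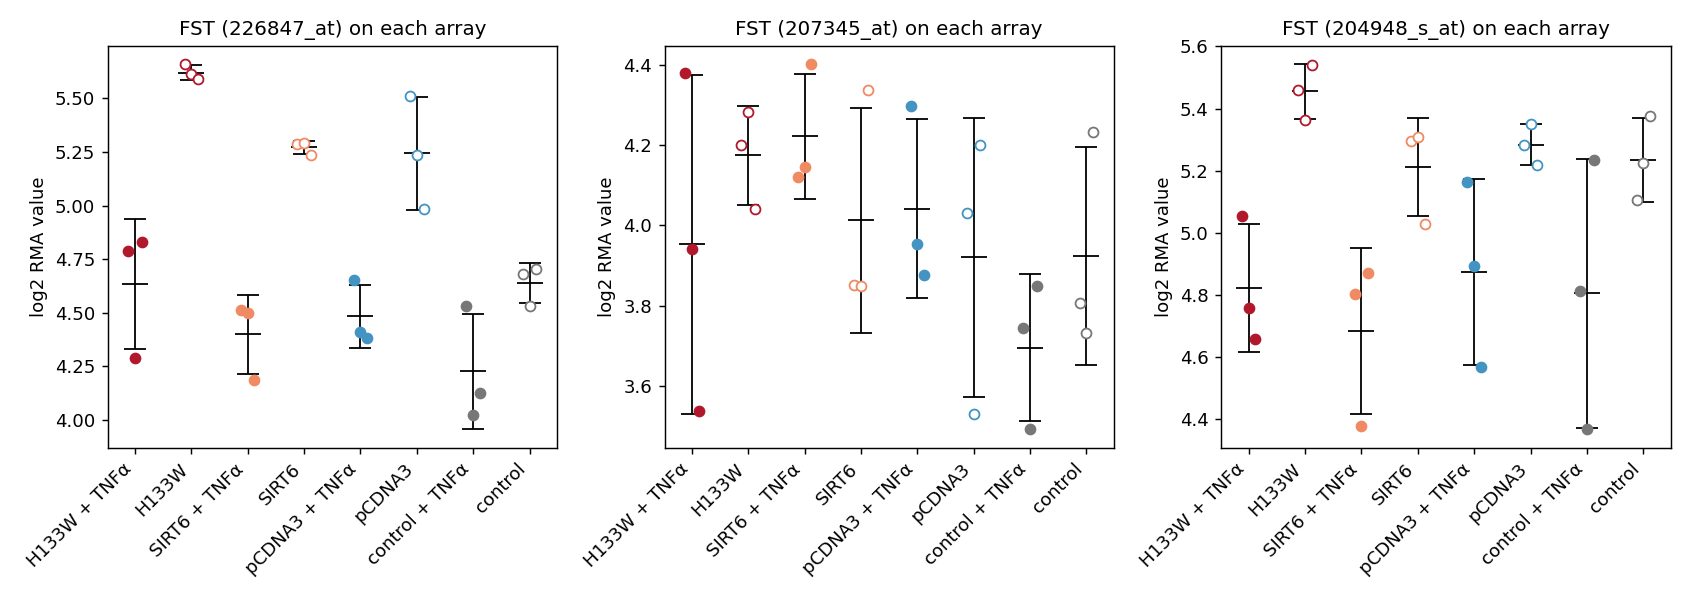
Log2 RMA value of the 3 probe sets of FST on each array, by condition, with the mean ± SD of 3 arrays. Filled points are arrays with TNFα and open points arrays without it. The values of 226847_at with TNFα lie between 4.02 and 4.83, and those of the transfected cells without it between 4.99 and 5.66. The axes differ between probe sets.

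The genes most like FST 226847_at over the 8 condition means were UBE2QL1 (Pearson r = 0.95), SYT4 (0.9463), VLDLR (0.9432), ATXN1-AS1 (0.9386) and HMOX1 (0.9363), of the same 930 probe sets. VLDLR is a lipoprotein receptor and HMOX1 the enzyme that breaks down heme. As for INHBE, the means come from 1 set of arrays and the values are a description.

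FSTL3, on chromosome 19 from 676392 to 683385, encodes the other antagonist. Its probe set 203592_s_at lay between 4.93 and 5.65 on the 24 arrays, with condition means that spanned 0.142. The highest of these was H133W + TNFα replicate 3, as for INHBB. The changes with TNFα lay between -0.03 and 0.06 in the 4 kinds of cell, and 0 were called. When the 3 arrays were left out, the 0.06 of H133W cells became -0.15 (adjusted p = 0.371).

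GDF15 was higher in H133W cells than in empty vector cells on 2 of its 3 probe sets, by less than the fold threshold. The gene lies on chromosome 19 from 18386158 to 18389176. Its promoter is shown as that of the other member past the adjusted p, over the 250 bases before the RefSeq start, chr19:18385908-18386157 on the plus strand of GRCh38.p14, with a match to TATAAA, the TATA box, in capitals.
GDF15: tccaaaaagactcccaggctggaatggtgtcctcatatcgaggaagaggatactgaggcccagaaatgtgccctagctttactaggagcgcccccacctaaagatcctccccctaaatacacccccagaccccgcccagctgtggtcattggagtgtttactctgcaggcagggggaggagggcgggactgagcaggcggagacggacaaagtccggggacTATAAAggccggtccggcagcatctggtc
The match begins 29 bases before the start, and 6.8% of the windows hold these letters on the strand of the gene. Neither the CARE motif that ATF4 reads with C/EBP factors (TGATGNAAN, in 3.13% of all windows) nor the cyclic AMP response element (TGACGTCA, 1.65%) was found on either strand in the windows of the 7 members that have one, which are all but INHBE. The loosened AP-1 pattern TGANTCA was also found in INHA and the TATA box in INHBA.

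Probe set 221577_x_at read 5.37, 5.04 and 5.03 in H133W cells, against 4.57, 4.70 and 4.58 in empty vector cells. All H133W arrays lay above all empty vector arrays, and the change of 0.53 (SE 0.135, 1.45-fold) had an adjusted p of 0.0351. With TNFα the change was 0.36 (adjusted p = 0.138), with 4.72, 4.99 and 5.00 in H133W + TNFα cells against 4.67, 4.53 and 4.43 in pCDNA3 + TNFα cells, which did not overlap.

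Probe set 229868_s_at read 5.77, 5.59 and 5.58 in H133W cells, against 5.12, 5.39 and 5.42 in empty vector cells, a change of 0.33 (adjusted p = 0.0711) with no overlap. With TNFα it read 5.46, 5.56 and 5.45 in H133W + TNFα cells, against 5.10, 4.90 and 5.17 in pCDNA3 + TNFα cells. That change of 0.43 (1.35-fold, adjusted p = 0.0114) passed the adjusted p and not the fold threshold, so that each of the probe sets passed in 1 of the 2 states. The correlation between them over the 24 arrays was 0.682.

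The third, 221576_at, had correlations of 0.232 with 221577_x_at and 0.194 with 229868_s_at. It changed by 0.15 in H133W over empty vector cells, and empty vector cells lay 0.36 below control cells (adjusted p = 0.123). All 3 probe sets were lower with TNFα in 4 of 4 kinds of cell, by 0.07 to 0.30 on the log2 scale, and none of these was called.

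**Figure D4:**
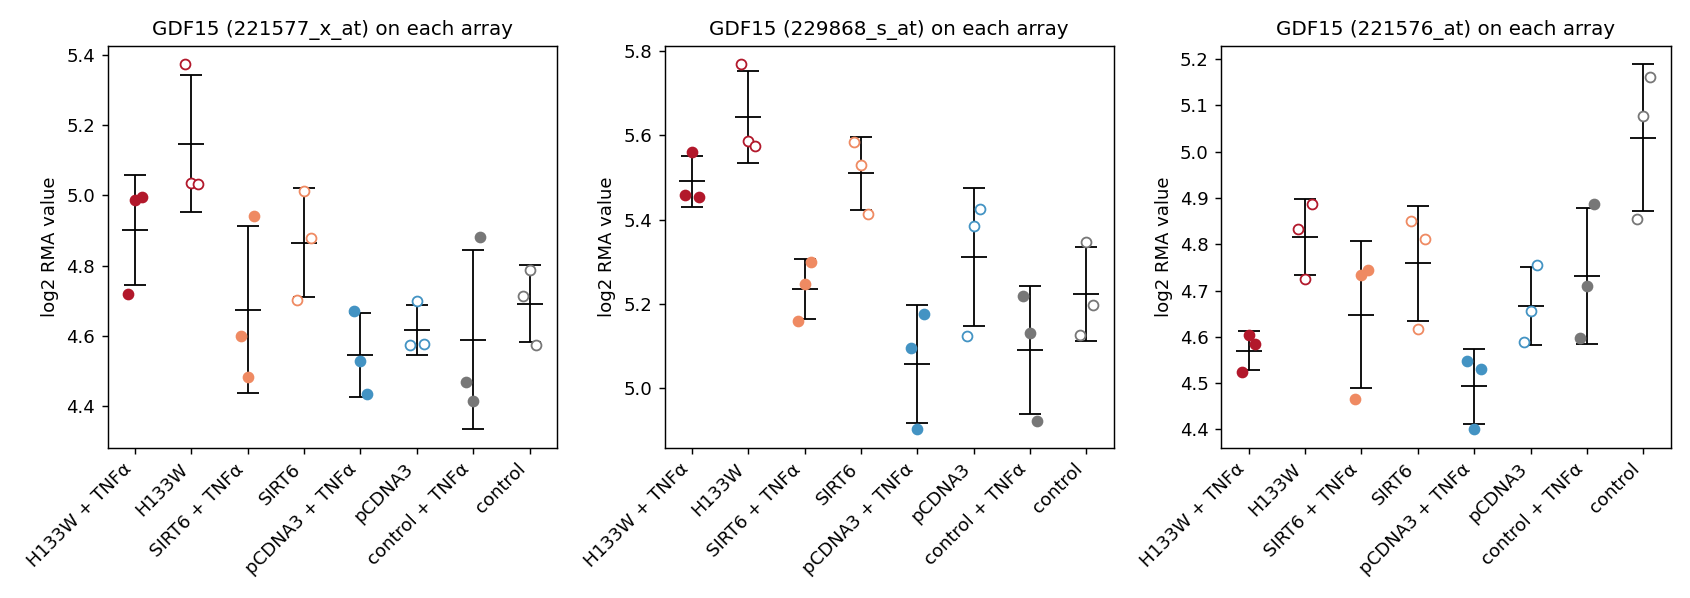
Log2 RMA value of the 3 probe sets of GDF15 on each array, by condition, with the mean ± SD of 3 arrays. Filled points are arrays with TNFα and open points arrays without it. H133W arrays lie above empty vector arrays on 221577_x_at and 229868_s_at in both states, and on 221576_at the control arrays without TNFα have the highest mean, 5.03. The axes differ between probe sets.

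In H133W over empty vector cells the median change of the 15 was 0.165, against -0.0166 over all probe sets, and 5 of the 15 had an unadjusted p under 0.05, 4 of them higher and 1 lower, where 14.7% of all probe sets had one. In SIRT6 over empty vector cells the median was 0.0924, against -0.00306 over all. With TNFα the medians were -0.111 in H133W cells, -0.112 in SIRT6 cells, -0.0712 in empty vector cells and -0.112 in control cells, against -0.00476, -0.0191, -0.0184 and -0.00962 over all probe sets.

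Genes that receive and pass on the signal changed with TNFα in a few cases. The shares of all probe sets called with TNFα were 1.12% in H133W, 0.845% in SIRT6, 0.86% in empty vector and 0.775% in control cells. Of 8 measured receptors and co-receptors, 0 were called between plasmids, where 0.0348% to 1.4% of all probe sets were called. TGFBR3, which encodes betaglycan, fell with TNFα by 0.65 in H133W cells (adjusted p = 0.0122) and by 0.76 in SIRT6 cells (0.00356). In H133W cells that call was lost without H133W replicate 1 (-0.60, adjusted p = 0.0716) or replicate 2 (-0.65, 0.0506). Both calls were on 1 of the 2 TGFBR3 probe sets. The other, 226625_at, was lower with TNFα also in empty vector cells (-0.31, adjusted p = 0.00738) and control cells (-0.28, 0.0203), under the fold threshold. It was also lower in H133W + TNFα than in pCDNA3 + TNFα cells (-0.36, adjusted p = 0.00159), again under the fold threshold. Of 8 SMAD genes, SMAD6, an inhibitory SMAD, fell with TNFα by 0.65 in H133W cells (adjusted p = 0.0044) and by 0.63 in SIRT6 cells (0.00425), on different probe sets. Of the 4 probe sets of SMAD6, 1 was called in H133W and 2 in SIRT6 cells, with the weakest at -0.16 and -0.20. The call of SMAD6 was lost without H133W replicate 2 (-0.57), SIRT6 replicate 2 (-0.53) or SIRT6 + TNFα replicate 2 (-0.53), which came under the fold threshold. The mean of SMAD6 207069_s_at was lower with TNFα also in empty vector cells (7.92 against 8.481) and control cells (7.961 against 8.375), where it was not called. The other 7 SMAD genes were called in no comparison.

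Of 8 measured genes that SMAD signalling is known to induce, ID1 and ID2, inhibitors of basic helix-loop-helix factors, fell with TNFα in H133W cells, by 0.70 (adjusted p = 0.00364) and 0.60 (adjusted p = 1.75e-04). ID2 came under the fold threshold without H133W replicate 1 or H133W + TNFα replicate 2, at -0.53 in each. It was called on 1 of its 2 probe sets, with the other at -0.31. ID1 also fell by 0.59 in empty vector cells (adjusted p = 0.0181), a call that held on leaving out 1 of the 6 arrays and was lost on leaving out any of the other 5 (-0.61 to -0.53). In the kinds of cell without a call the means were lower with TNFα as well. For ID1 they were 7.783 against 8.34 in SIRT6 cells and 7.859 against 8.073 in control cells. For ID2 they were 10.44 against 10.86 in SIRT6, 10.45 against 10.84 in empty vector and 10.51 against 10.77 in control cells. SKIL, a repressor that binds SMADs, was higher than in empty vector cells by 0.68 in H133W cells (adjusted p = 0.0151) and by 0.89 in SIRT6 cells (0.0258). SKIL was called on 1 of its 5 probe sets, 232379_at, and the lowest change of the 5 was 0.11 in H133W and -0.12 in SIRT6 cells. The mean of 232379_at was 5.945 in empty vector cells, below the 6.457 of control cells. It was 6.621 in H133W and 6.829 in SIRT6 cells. Without pCDNA3 replicate 2 the changes of SKIL were 0.45 (adjusted p = 0.0857) and 0.66 (0.0896). Its call in H133W cells was also lost without H133W replicate 1 or 3 (0.67 and 0.66), and that in SIRT6 cells without any 1 of the 3 SIRT6 arrays (0.86 to 0.90).

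Of 12 related ligands, binders and convertases, BMP2, another ligand of the superfamily, rose with TNFα in all 4 kinds of cell. The changes were 1.33 in SIRT6 cells (adjusted p = 1.47e-06), 1.64 in empty vector cells (5.96e-08) and 1.67 in control cells (4.26e-08) on probe set 205290_s_at, and 1.19 in H133W cells (8.1e-12) on 205289_at. BMP4 fell with TNFα by 0.77 in H133W cells (adjusted p = 8.27e-04) and by 0.65 in SIRT6 cells (0.00453). Without SIRT6 + TNFα replicate 3 the change in SIRT6 cells was -0.58, under the fold threshold. The mean of BMP4 was lower with TNFα also in empty vector cells (5.372 against 5.886) and control cells (5.496 against 5.882), where it was not called. GDF11, a relative of myostatin, was lower in H133W + TNFα cells than in H133W cells by 0.59 (adjusted p = 0.0118) and than in pCDNA3 + TNFα cells by 0.63 (0.0056). Without H133W + TNFα replicate 3, the array with the shortened RNA, these were -0.38 and -0.42, under the fold threshold. The calls were also lost without H133W replicate 1 (-0.58, adjusted p = 0.0509) and without pCDNA3 + TNFα replicate 3 (-0.58), each in its own comparison. The mean of GDF11 217498_at was lower with TNFα also in SIRT6 (5.979 against 6.345), empty vector (6.307 against 6.548) and control cells (6.108 against 6.505), with no call. Both calls of GDF11 were on this 1 of its 5 probe sets. The weakest of the 5 changed by -0.14 against H133W cells and by -0.11 against pCDNA3 + TNFα cells. In fits to the arrays of 1 comparison alone, the TNFα calls of TGFBR3, SMAD6, ID1, ID2, BMP4 and GDF11 in H133W cells were lost (adjusted p from 0.114 to 0.379), and those of BMP2 held in all 4 kinds of cell.

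Stress factors with known links to INHBE or GDF15 were set beside the members. The list was written with the stress response of these cells already known, so that its direction is no independent evidence. A gene counted as called if any of its probe sets was, so that these counts and the shares of probe sets differ in unit. Without TNFα, 2 of 9 measured genes rose in H133W over empty vector cells, where 0.77% of all probe sets were called, with a median change of 0.41 over the list. These were DDIT3, the stress factor CHOP, by 0.81 (adjusted p = 3.8e-04) and ATF3, a factor of the ATF family, by 1.25 on its most changed probe set (adjusted p = 0.00103) and by 1.10 on 202672_s_at (6e-08). With TNFα 4 of 9 rose, where 1.4% of all probe sets were called, with a median of 0.47. These were DDIT3 by 1.08 (adjusted p = 1.16e-05), ATF3 by 0.95 (3.83e-07), the pseudokinase TRIB3 by 0.66 (2.24e-04) and the immediate early factor EGR1 by 0.69 (6.17e-06). ATF3 was called there on 1 of its 3 probe sets, with another at -0.03, TRIB3 on 1 of 2, with the other at 0.14, and EGR1 on 2 of 3. Without H133W + TNFα replicate 3 the change of TRIB3 was 0.53, under the fold threshold, and the other 3 calls held without any single array. Fitted to the 6 arrays of the comparison alone, the adjusted p with TNFα was 0.0665 for DDIT3 and 0.167 for TRIB3. In the cells without TNFα, TRIB3 218145_at was 0.52 higher (adjusted p = 0.00276) and EGR1 201694_s_at 0.51 higher (2.66e-04), both under the fold threshold. Their responses to TNFα in H133W cells differed from those in empty vector cells by 0.13 (adjusted p = 0.723) and 0.18 (0.571).

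In SIRT6 over empty vector cells 1 of 9 rose without TNFα, ATF3 by 0.59 (adjusted p = 0.00187), and 1 of 9 with it, DDIT3 by 0.60 (0.0472). Of all probe sets 0.0348% and 0.0695% were called in these comparisons. ATF3 came under the fold threshold without SIRT6 replicate 3 (0.58) or pCDNA3 replicate 1 (0.53), and the call of DDIT3 was lost on leaving out any 1 of its 6 arrays, with adjusted p from 0.131 to 0.26. Fitted to the 6 arrays of the comparison alone, ATF3 was not called (adjusted p = 0.257). In SIRT6 cells TRIB3 fell with TNFα by 0.67 (adjusted p = 1.71e-04). It was lower with TNFα, and not called, also in empty vector (-0.47, adjusted p = 0.00728), H133W (-0.34, 0.0536) and control cells (-0.30, 0.17). The response in SIRT6 cells differed from that in empty vector cells by -0.20, which was not called. TRIB3 was also 0.61 higher in H133W + TNFα cells than in SIRT6 + TNFα cells (adjusted p = 0.00241), on 1 of its 2 probe sets, with the other at 0.08. The call was lost without H133W + TNFα replicate 3 (0.48) or SIRT6 + TNFα replicate 2 (0.57), which gave changes under the fold threshold. It was also lost in the fit to the 6 arrays alone (adjusted p = 0.479). In empty vector over control cells 0 of 9 were called in either state, where 0.0933% of all probe sets were called without TNFα and 0.0329% with it. Without TNFα DDIT3 was 0.54 higher (adjusted p = 0.0592). ATF3 202672_s_at was 0.52 higher (adjusted p = 0.00875) and TRIB3 218145_at 0.48 higher (0.0374), both under the fold threshold. ATF4 was called in no comparison.

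**Figure D5:**
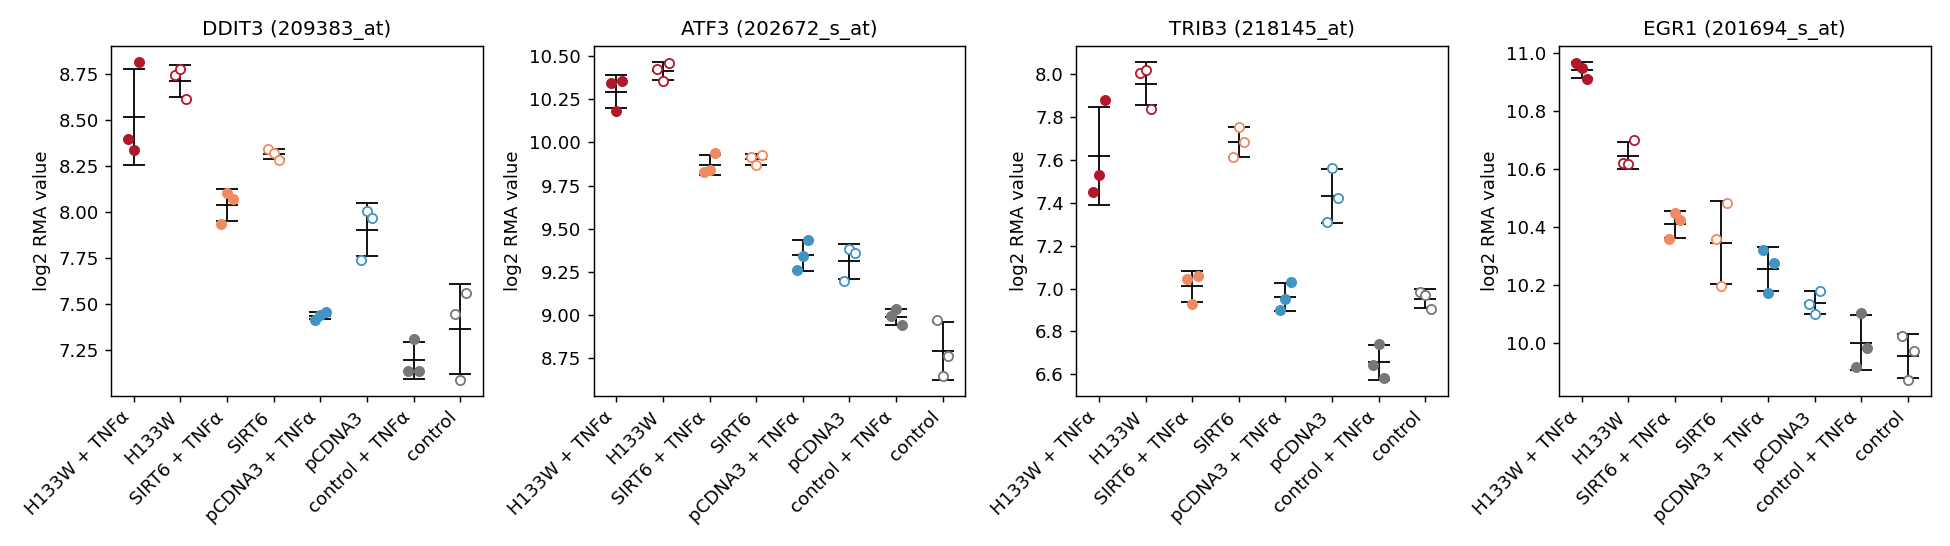
Log2 RMA value of DDIT3, ATF3, TRIB3 and EGR1 on each array, by condition, with the mean ± SD of 3 arrays. Filled points are arrays with TNFα and open points arrays without it. Within either state all H133W arrays lie above all empty vector arrays in each gene, and the calls are those of DDIT3 and ATF3 in both states and of TRIB3 and EGR1 with TNFα. Without TNFα the rises of TRIB3 (0.52) and EGR1 (0.51) passed the adjusted p and not the fold threshold. The axes differ between genes.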

How the data were processed

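HEK293 cells in 8 conditions were profiled on 24 Affymetrix HG-U133 Plus 2.0 arrays, 3 biological replicates per condition. The deposited log2 values, made by the authors with RMA, ran from 1.52 to 13.75 over 54675 probe sets and were used as given. Whether replicates came from separate cultures is not stated beyond their label, and their number limits the precision. Genes were assigned to probe sets from the annotation of the platform, with symbols updated by Entrez ID (41043 of 41097 single-gene probe sets matched). In R 4.3.3, limma 3.58.1 fitted 1 mean per condition over all 24 arrays (residual degrees of freedom 16, prior 3.47), and the Benjamini-Hochberg adjustment ran over all probe sets of each comparison. The fit was tested on simulated data. The members, the gene lists (10 stress factors, 11 receptors, 8 SMAD genes, 11 induced genes and 12 related ligands, not all measured) and the tests were chosen with earlier results of these data known. Named genes are all members, up to 6 called genes per list, and the 5 genes most like each called member. A gene of several probe sets was counted by its called one. Promoter sequences are from RefSeq (GRCh38.p14), of which the 250 bases before the start were used and 7 of 8 members matched. Alternatives were a plain linear model, a variance trend, renewed quantile normalization, no dim probe sets, no fold threshold, a replicate block, the arrays of a comparison alone, and arrays left out singly or 3 together.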

Additional observations from a re-analysis of the deposited data

How the results depend on the processing

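The calls of INHBE held under every alternative except that, fitted to the arrays of the comparison alone, the count of member calls was 0 for empty vector over control cells and 0 for the same with TNFα. With no fold threshold the count was 2 in place of 1 in H133W over empty vector cells and again 2 with TNFα, the second being a GDF15 probe set in each. The TNFα counts of 1, which are FST, were 0 in H133W, 0 in SIRT6 and 0 in empty vector cells when dim probe sets were left out, since FST 226847_at was then not tested, and 0 in H133W and 0 in empty vector cells in the fit to the arrays of the comparison alone. The count in H133W cells was 2 without the 3 arrays that stand apart (control replicate 2, pCDNA3 replicate 2 and H133W + TNFα replicate 3), INHBA being the second, and 1 to 2 on leaving out single arrays, the second then being FST 204948_s_at without control + TNFα replicate 2 or 3 or H133W + TNFα replicate 1, or INHBA without H133W + TNFα replicate 3. The replicate numbers did not pair the arrays, since the deviations of same-numbered arrays correlated above 0.1 in 8 of 36 pairs (-0.383 to 0.28), and with the replicate block INHBE in H133W over empty vector cells changed by 2.18 (adjusted p = 5.04e-08) and no member call changed. Every called change kept its direction under the alternatives run for it. Of the changes that were not called, several close to 0 turned sign without the 3 arrays that stand apart, among them those of INHBB (0.02 and then -0.38) and FSTL3 (0.06 and then -0.15) with TNFα in H133W cells. Of the 15 member probe sets 12 are dim, where a change close to the fold threshold is limited by the spread of 3 arrays.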
